A study of Gallus gallus with 8 samples.

Results

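Fibroblast growth factor (FGF) genes were examined in chick placode cells, in which the otic placode forms the inner ear and the epibranchial placodes form cranial sensory neurons. The set held the rows of the count table named as FGF ligands or FGF binding proteins, FGF receptors, receptor adaptors (FRS), Sprouty and Spred inhibitors, IL17RD, ETV1, ETV4, ETV5 and dual-specificity phosphatases (DUSP). It matched 54 of 24356 genes, and 48 of the 54 passed the filter on low counts that left 16861 genes to test. All embryos were electroporated in ovo at somite stage (ss) 3 to 5 according to the sample labels, or ss3 to ss6 according to the series design, with 1 of 2 EGFP reporter plasmids. The Lmx1aE1 enhancer marked otic cells (4 libraries) and the Sox3U3 enhancer marked epibranchial cells (4 libraries). Embryos were collected at ss18 to ss21, and each bulk RNAseq library came from 2000 sorted EGFP+ cells. The source tissue is given as whole heads in the methods and as dissected ear regions elsewhere in the study. Plasmid expression is transient and EGFP protein can outlast the activity of an enhancer, so each group is a reporter-defined population and not a pure cell type. The methods call the libraries biological replicates, and no other treatment was applied to either group.

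FGF ligands are secreted proteins that bind receptor tyrosine kinases together with heparan sulfate. The receptors signal through adaptors and RAS to the kinase ERK, and ERK signalling induces ETS factors of the PEA3 group (ETV1, ETV4, ETV5) as well as its own inhibitors, the Sprouty, Spred, IL17RD and some DUSP proteins. In chick, FGFs from the tissues around the hindbrain induce the common territory of otic and epibranchial progenitors, which makes the pathway of interest when these fates are compared.

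Library totals ran from 6559872 to 45183366 counts, with 2 libraries above and 2 below 15000000 counts in each group. A shared library number did not pair libraries of the 2 groups (same-number correlations of -0.11, -0.23, 0.05 and -0.16). On log2 CPM (counts scaled to a common library size), Sox3U3-EGFP library 4 correlated least with its own group (mean r = 0.960 across genes, against 0.966 to 0.977 for the other 7 libraries). Of 8 tested otic markers 4 (SOX10, SOX8, LMX1A, COL9A1) were higher in Lmx1aE1-EGFP+ cells, PAX2 was higher in Sox3U3-EGFP+ cells, and HMX3 was near 0 in both groups. The 4 tested epibranchial markers (ISL1, SOX3, UPK1B, NELL1) were all higher in Sox3U3-EGFP+ cells. LMX1A and SOX3 are the genes after which the 2 enhancers are named, and the study itself names NELL1 as epibranchial. The marker lists were chosen with earlier results of these data known, so their counts are no independent check of cell identity. Markers of other cells also differed. Of the neural crest markers, 7 of 9 were higher in Lmx1aE1-EGFP+ cells (summed level 734 to 824 CPM against 183 to 268 CPM). In Sox3U3-EGFP+ cells 6 of 6 epidermis markers were higher (629 to 943 CPM against 3345 to 4318 CPM). Most of the epidermis sum was CLDN1 (mean 472 against 2360 CPM). TP63 (4.93 against 20.5 CPM) and GRHL3 (6.50 against 11.0 CPM) added little to it. Of 5 tested neural tube markers 1 was higher in each group. The background for these lists is the share of all 16861 tested genes past the edgeR test. It was 12.1% on the Lmx1aE1-EGFP side and 11.3% on the Sox3U3-EGFP side. The neural tube count of 1 in 5 per side lay near it.

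Among the FGF pathway genes, the secreted ligands FGF8, FGF18, FGF10, FGF19 and FGF7 and the kinase-less receptor FGFRL1 were higher in Sox3U3-EGFP+ cells. The phosphatases DUSP1, DUSP14 and DUSP16, the inhibitor SPRY3 and the intracellular FGF12 were also higher there. The signalling receptors FGFR1, FGFR3 and FGFR4, the inhibitor IL17RD and the phosphatases DUSP5 and DUSP7 were higher in Lmx1aE1-EGFP+ cells. FGFR4 and SPRY3 did not pass the test in 9 of 17 and 10 of 16 alternative fits. Genes were called at an adjusted p under 0.05, taken from the edgeR quasi-likelihood test with Benjamini-Hochberg adjustment across the 16861 genes. By this criterion 11 of the 48 tested members were higher in Sox3U3-EGFP+ cells, where 11.3% of all tested genes were. In Lmx1aE1-EGFP+ cells 6 of the 48 were higher, where 12.1% of all tested genes were, so that this count lay at the background. In either direction 35.4% of the tested members were called, against 23.3% of all tested genes. With the study's additional threshold of a log2 fold change beyond 1.5, FGF8, FGF18, FGF7 and FGFRL1 remained in Sox3U3-EGFP+ cells (4 members, against 2.47% of all genes), and none did in Lmx1aE1-EGFP+ cells (0.712% of all genes). All Sox3U3-EGFP libraries lay above all Lmx1aE1-EGFP libraries for 11 members (12.3% of all genes), and the reverse held for 5 (13.7% of all genes). The median log2 fold change was -0.18 over the 48 members and -0.04 over all tested genes. Fold changes (log2FC, with the standard error SE) are Lmx1aE1-EGFP over Sox3U3-EGFP throughout, so that a negative value is higher in Sox3U3-EGFP+ cells. In bulk libraries fewer cells of a kind and less RNA per cell cannot be told apart.

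**Figure D1:**
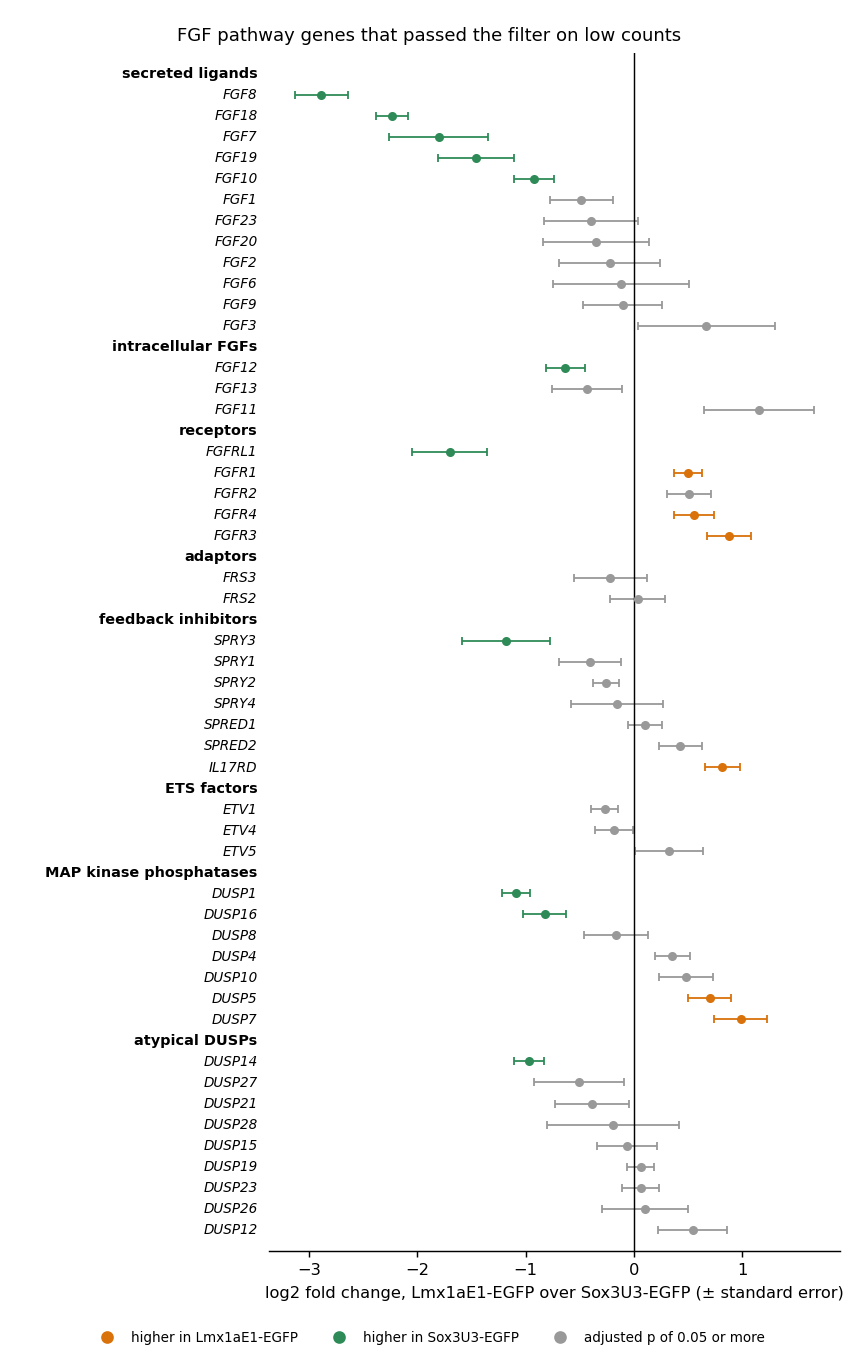
Log2 fold change of each of the 48 tested FGF pathway genes (x axis, Lmx1aE1-EGFP over Sox3U3-EGFP; points with standard errors), grouped by role. The 5 coloured secreted ligands all lie to the left, from -2.89 to -0.92, the 4 kinase receptors lie to the right, from 0.50 to 0.88, and the 3 ETS factors lie around 0.

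The table held 16 secreted ligands, of which 12 were tested. In this class 5 were higher in Sox3U3-EGFP+ cells (11.3% of all tested genes were), none was higher in Lmx1aE1-EGFP+ cells (12.1% of all tested genes were), and 7 did not pass the test. The 5 belong to the FGF8 subfamily (FGF8, FGF18), the FGF7 subfamily (FGF10, FGF7) and the endocrine subfamily (FGF19).

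FGF8 (ENSGALG00000007706) is a ligand made by signalling centres of the embryo and, in chick, by endoderm near the ear-forming region. It measured 21.2, 22.6, 25.2 and 36.0 CPM (here always scaled with TMM factors) across Sox3U3-EGFP libraries 1 to 4 and 3.54, 2.73, 2.70 and 4.88 CPM across Lmx1aE1-EGFP libraries 1 to 4. The lowest Sox3U3-EGFP library was therefore above every Lmx1aE1-EGFP library, and library 4 was the highest of each group. The means were 26.3 ± 6.70 CPM and 3.46 ± 1.02 CPM (mean ± SD, n = 4 per group), a log2FC of -2.89 (SE 0.24, edgeR adjusted p = 4.50e-07), which was the largest change of the 48 members. Without any 1 library it stayed between -3.15 and -2.69.

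FGF18 (ENSGALG00000002203), the other member of the FGF8 subfamily measured here, is known for its part in bone and lung development in mouse. It measured 45.1, 45.5, 53.7 and 46.3 CPM across Sox3U3-EGFP libraries 1 to 4 and 8.90, 10.9, 9.51 and 11.0 CPM across Lmx1aE1-EGFP libraries 1 to 4. Both groups were tight and far apart. The means were 47.6 ± 4.05 CPM and 10.1 ± 1.03 CPM (mean ± SD, n = 4 per group), a log2FC of -2.24 (SE 0.15, edgeR adjusted p = 2.86e-08).

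FGF10 (ENSGALG00000014872) and FGF7 (ENSGALG00000028158) signal mainly through the epithelial isoform of FGFR2, and FGF10 is needed for inner ear morphogenesis in mouse. FGF10 measured 35.6, 42.9, 42.4 and 40.5 CPM across Sox3U3-EGFP libraries 1 to 4 and 16.8, 16.8, 31.2 and 19.3 CPM across Lmx1aE1-EGFP libraries 1 to 4. Lmx1aE1-EGFP library 3 came close to the lowest Sox3U3-EGFP library, but the groups did not overlap. This gave a log2FC of -0.92 (SE 0.19, edgeR adjusted p = 0.00179), and within the 4 deeper libraries, which include that library, it was -0.61 (adjusted p = 0.0660). FGF7, a low transcript, measured 1.70, 2.70, 4.52 and 2.33 CPM across Sox3U3-EGFP libraries 1 to 4 and 0.39, 0.76, 1.29 and 0.54 CPM across Lmx1aE1-EGFP libraries 1 to 4. Library 3 was the highest of each group, and the groups did not overlap. For this gene the log2FC was -1.80 (SE 0.46, edgeR adjusted p = 0.00843), from 3 to 78 counts per library, and within the deeper libraries it was -1.22 (adjusted p = 0.198).

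FGF19 (ENSGALG00000028376), the chick counterpart of mouse FGF15, is made in chick by the mesoderm beneath the future ear and takes part in otic induction. It measured 12.5, 9.35, 19.5 and 8.20 CPM across Sox3U3-EGFP libraries 1 to 4 and 6.42, 2.12, 6.19 and 3.03 CPM across Lmx1aE1-EGFP libraries 1 to 4. The levels varied more than 2-fold within each group, yet the lowest Sox3U3-EGFP library lay above the highest Lmx1aE1-EGFP library. The difference amounted to a log2FC of -1.46 (SE 0.35, edgeR adjusted p = 0.00720), and within the 4 shallower libraries it was -1.67 (adjusted p = 0.0751).

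FGF3 (ENSGALG00000026853), an otic inducer expressed in the hindbrain of chick and mouse, did not follow these ligands. It measured 1.83, 2.73, 4.20 and 3.93 CPM across Lmx1aE1-EGFP libraries 1 to 4 and 2.88, 1.95, 3.15 and 0 CPM across Sox3U3-EGFP libraries 1 to 4. No read was counted in Sox3U3-EGFP library 4, and the groups overlapped. The fitted log2FC was 0.67 (SE 0.63, edgeR adjusted p = 0.492), and without any 1 library it stayed between 0.31 and 0.93. FGF19, FGF4 and FGF3 are neighbouring genes on chicken chromosome 5 in RefSeq's annotation of GRCg7b, with FGF4 (0 to 15 counts per library) lying between the called FGF19 and the uncalled FGF3.

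**Figure D2:**
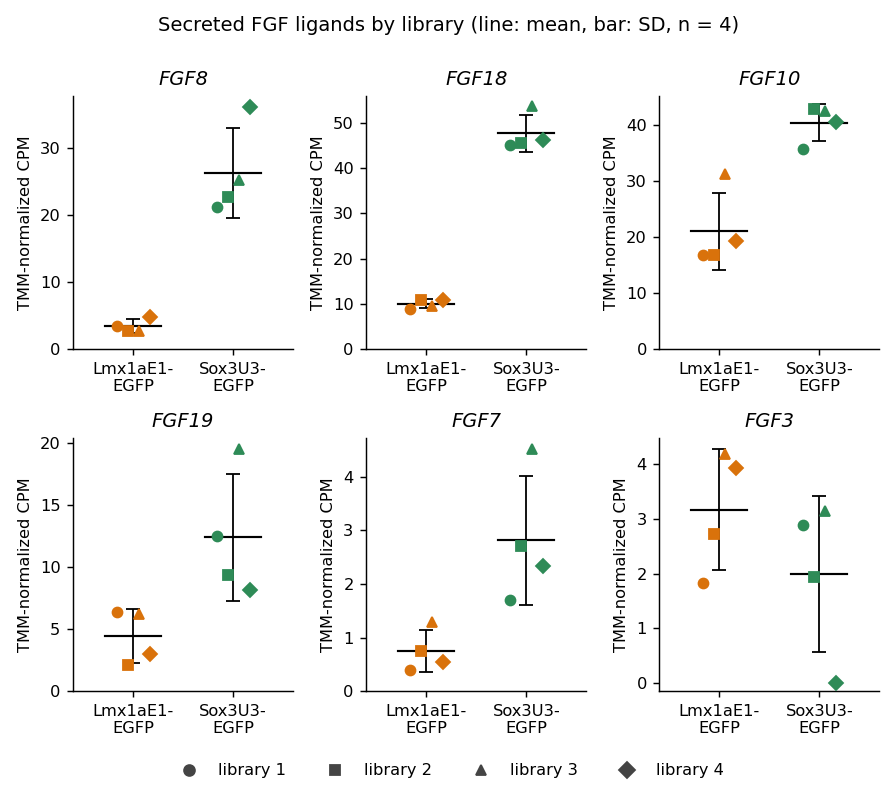
TMM-normalized CPM (y axis, linear) of 6 secreted FGF ligands in each of the 8 libraries. Points are libraries, horizontal lines are means and bars are SD (n = 4). FGF8, FGF18, FGF10, FGF19 and FGF7 show no overlap between the groups, and FGF3 overlaps with 1 Sox3U3-EGFP library at 0.

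The other tested ligands were low transcripts. FGF1, FGF2, FGF6, FGF9, FGF20 and FGF23 had group means between 0.91 and 4.79 CPM, overlapping libraries and log2FC values from -0.48 to -0.10, none past the test. FGF16 (ENSGALG00000007806) is a member of the FGF9 subfamily that marks the otic region in chick. It had 3, 6, 26 and 9 counts in Lmx1aE1-EGFP libraries 1 to 4 and 21, 6, 3 and 2 counts in Sox3U3-EGFP libraries 1 to 4. Scaled for depth, these were 0.39 to 1.08 CPM and 0.20 to 0.46 CPM, and the groups overlapped. The counts were too few to pass the filter. FGF4, FGF5, FGF22, the binding protein FGFBP2 and the phosphatase DUSP13 did not pass it either, with at most 40 counts in any library. These 6 genes were therefore not tested in the main fit. In the fit with no filter, which tested all 54 members, none of them passed the test. With so few counts this does not show that the groups are equal. Of the FGF homologous factors, intracellular proteins that bind voltage-gated sodium channels and do not signal through the classical receptors, FGF12 (ENSGALG00000036971) had 17.5 ± 2.03 CPM in Sox3U3-EGFP+ and 11.4 ± 1.89 CPM in Lmx1aE1-EGFP+ cells (mean ± SD, n = 4 per group). The fit put its log2FC at -0.63 (SE 0.18, edgeR adjusted p = 0.0175), and without Lmx1aE1-EGFP library 3 it was -0.59 (adjusted p = 0.0613). FGF13 (-0.43) and FGF11 (1.16, from 8 to 31 counts per library) did not pass the test.

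Several tissues near the ear are known sources of FGFs, so their markers were read beside the ligands. Heart muscle markers had 2 of 7 tested genes higher in Sox3U3-EGFP+ cells, NKX2-5 and TNNT2, where 11.3% of all tested genes were. Both were without overlap between the groups, as were 12.3% of all tested genes in this direction. The median log2FC of the list was -2.59. NKX2-5 was at 4.10 to 7.62 CPM in Sox3U3-EGFP+ cells and 0.30 to 1.33 CPM in Lmx1aE1-EGFP+ cells. TNNT2 was at 6.41 to 27.1 CPM and 1.05 to 3.57 CPM. The summed level of the heart list, which includes TNNC1 at a mean of 29.9 and 32.5 CPM, was 51.0 to 185 CPM and 38.4 to 58.9 CPM. Pharyngeal endoderm markers had 2 of 6 tested genes higher in Sox3U3-EGFP+ cells, FOXA2 and NKX2-3, against the same 11.3% of all tested genes. NKX2-3 did not overlap between the groups, and the median log2FC of these markers was -1.32. Their summed level was 19.3 to 57.2 CPM against 14.0 to 24.9 CPM, and SOX17 and NKX2-3 were at 0 in some library. The epidermis sum separated the groups as the ligands did. So did the epibranchial sum, at 229 to 254.5 CPM in Sox3U3-EGFP+ cells and 45.9 to 52.7 CPM in Lmx1aE1-EGFP+ cells. The neural tube sum did too (193 to 259 CPM and 103 to 129 CPM). Most of that sum was HOXB1, at a mean of 190 and 74.0 CPM. Of the other tested neural tube markers ZIC1 was higher in Lmx1aE1-EGFP+ cells (log2FC 1.82). SOX2, PAX6 and NKX6-2 did not pass the test. The part of heart, endoderm, epidermal, epibranchial and neural tube cells in the ligand levels was not tested.

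The 4 receptors with a tyrosine kinase domain all had higher means in Lmx1aE1-EGFP+ cells, and 3 of them, FGFR1, FGFR3 and FGFR4, passed the test. FGFRL1, which binds FGFs but lacks the kinase domain, went the other way. Of the 5 receptors 4 were therefore called, where 23.3% of all tested genes were.

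FGFR1 (ENSGALG00000039786) measured 151, 148, 146 and 120 CPM across Lmx1aE1-EGFP libraries 1 to 4 and 82.2, 96.4, 95.1 and 126 CPM across Sox3U3-EGFP libraries 1 to 4. Library 4 was the lowest of the first group and the highest of the second, and there the groups overlapped. The log2FC was 0.50 (SE 0.13, edgeR adjusted p = 0.00912), whereas the two-sided exact permutation test of the 8 values gave p = 0.0571. Within the 4 shallower libraries the log2FC was 0.44 (edgeR, adjusted p = 0.0766).

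FGFR3 (ENSGALG00000015708), which acts in the inner ear to set the fate of supporting cells in mouse, measured 41.6, 33.2, 29.4 and 20.7 CPM across Lmx1aE1-EGFP libraries 1 to 4 and 12.9, 17.2, 17.0 and 20.8 CPM across Sox3U3-EGFP libraries 1 to 4. As for FGFR1, library 4 of each group lay nearest to the other group, and these 2 libraries were level. This gave a log2FC of 0.88 (SE 0.20, edgeR adjusted p = 0.00514), the exact permutation p was 0.0571, and the call held under all 17 alternatives.

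FGFR4 (ENSGALG00000028543) measured 14.7, 17.7, 18.9 and 14.1 CPM across Lmx1aE1-EGFP libraries 1 to 4 and 12.9, 10.3, 9.24 and 12.0 CPM across Sox3U3-EGFP libraries 1 to 4, with no overlap. Its log2FC was 0.55 (SE 0.18, edgeR adjusted p = 0.0391). The call was lost under 9 of 17 alternatives, among them without Lmx1aE1-EGFP library 1, 2 or 3 and without Sox3U3-EGFP library 2 or 3 (adjusted p from 0.0512 to 0.142), with log2FC values of 0.46 to 0.61. FGFR2 (ENSGALG00000009495), whose splice forms receive FGF7 and FGF10 in epithelia, measured 23.2, 19.1, 17.0 and 12.9 CPM across Lmx1aE1-EGFP libraries 1 to 4 and 11.6, 14.6, 10.2 and 13.8 CPM across Sox3U3-EGFP libraries 1 to 4. Lmx1aE1-EGFP library 4 lay within the other group. The log2FC of 0.51 (SE 0.20) missed the threshold (edgeR adjusted p = 0.0780), and without Lmx1aE1-EGFP library 4 it was 0.64 (adjusted p = 0.0237). The splice forms of the receptors were not resolved, since reads were counted per gene.

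FGFRL1 (ENSGALG00000037525) measured 4.23, 3.89, 6.62 and 10.7 CPM across Sox3U3-EGFP libraries 1 to 4 and 1.70, 2.12, 1.91 and 1.94 CPM across Lmx1aE1-EGFP libraries 1 to 4. Its level was even within Lmx1aE1-EGFP+ cells and ranged widely in Sox3U3-EGFP+ cells, with library 4 the highest. The difference amounted to a log2FC of -1.70 (SE 0.35, edgeR adjusted p = 0.00186). It was -1.33 without Sox3U3-EGFP library 4, still past the test, and -1.05 within the deeper libraries (adjusted p = 0.0988). The adaptors FRS2 and FRS3, which link activated receptors to RAS signalling, had log2FC values of 0.04 and -0.22 and did not pass the test, and that of FRS2 was -0.02 when scaled by library size only.

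**Figure D3:**
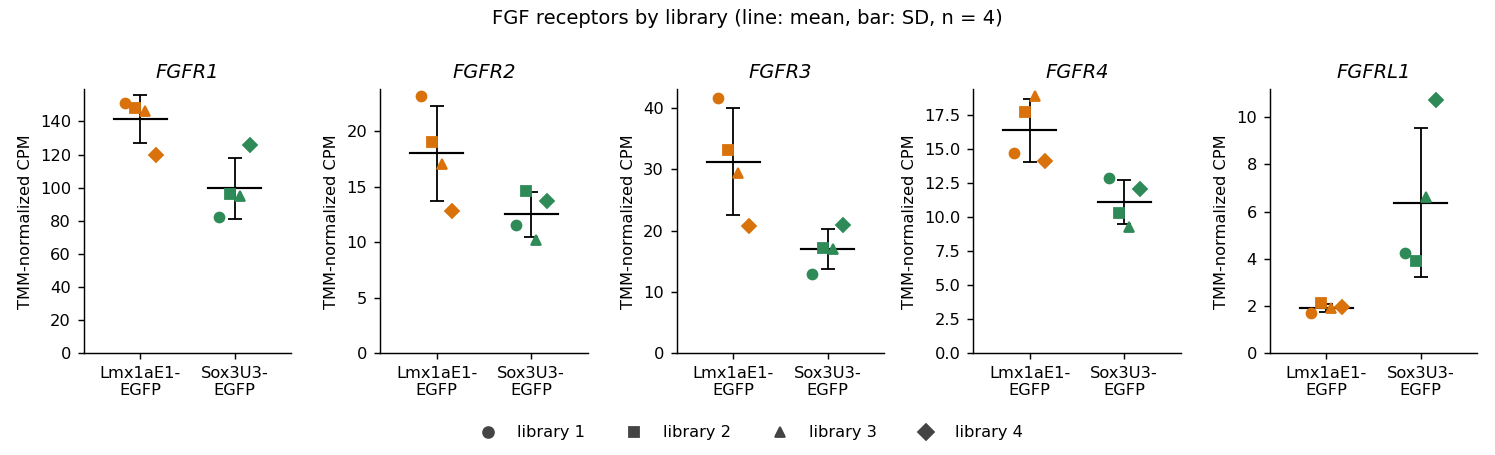
TMM-normalized CPM (y axis, linear) of the 5 FGF receptors in each of the 8 libraries, with means (lines) and SD (bars, n = 4). In FGFR1 and FGFR3 library 4 of each group lies nearest to the other group, and in FGFRL1 the 4 Lmx1aE1-EGFP libraries sit between 1.70 and 2.12 CPM, below all Sox3U3-EGFP libraries.

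The neural crest markers moved in the same direction as the kinase receptors. So did 3 of 5 tested head mesenchyme markers (TWIST1, PRRX1, PDGFRA), where 12.1% of all tested genes were higher in Lmx1aE1-EGFP+ cells. MEOX1 (log2FC -0.21) and FOXC2 (-0.14) leaned the other way and did not pass the test. The summed level of the mesenchyme list was 145 to 191 CPM against 94.3 to 136 CPM. FGFR1, FGFR2, FGFR3, FGFR4 and IL17RD were lowest of their group in Lmx1aE1-EGFP library 4. Over the 48 tested members this library was the lowest of its group for 16 and the highest for 14. Over all tested genes it was so for 33.1% and 30.5%. Its mesenchyme sum was also the lowest of its group (145 CPM). The neural crest markers FOXD3 (59.6 CPM), EDNRB (9.98 CPM), LMO4 (41.4 CPM) and ERBB3 (38.3 CPM) were lowest there too, whereas MSX1 (190 CPM) and PAX7 and PAX3 were highest there, and the crest sum with MSX1 was 800 CPM. The blood and endothelium sum was the highest of all libraries (829 CPM, against 57.1 to 380 CPM). Most of it was the globins HBZ (371 CPM), HBA1 (207 CPM) and HBM (134 CPM). Of the 8 tested genes of this list only the endothelial KDR passed the test, and it was higher in Sox3U3-EGFP+ cells. Its means were 55.1 and 21.7 CPM (log2FC -1.31, edgeR adjusted p = 0.00744). This count of 1 in 8 lay near the 11.3% of all tested genes. The part of these cells in the levels of the receptors and IL17RD was not tested.

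No common direction was seen among the genes that ERK signalling induces. None of the 3 ETS factors passed the test. Of the 7 inhibitors of the Sprouty, Spred and IL17RD families 1 was higher in each group. The called share of these 7 was 28.6%, against 23.3% of all tested genes. By side the background was 12.1% (Lmx1aE1-EGFP) and 11.3% (Sox3U3-EGFP), so that 1 of 7 lay near it. Of these 2 calls, that of SPRY3 was lost under 10 of 16 alternatives. Together with the DUSP genes, those called were IL17RD, DUSP5 and DUSP7 on the Lmx1aE1-EGFP side and SPRY3, DUSP1, DUSP16 and DUSP14 on the Sox3U3-EGFP side.

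IL17RD (ENSGALG00000005499), also called Sef, is a membrane protein that restrains FGF signalling to ERK. It measured 43.7, 38.9, 34.0 and 28.7 CPM across Lmx1aE1-EGFP libraries 1 to 4 and 20.0, 17.6, 23.5 and 21.3 CPM across Sox3U3-EGFP libraries 1 to 4. Every Lmx1aE1-EGFP library was above every Sox3U3-EGFP library. The fitted log2FC was 0.82 (SE 0.16, edgeR adjusted p = 0.00144), and the call held under all 17 alternatives with values from 0.73 to 0.91.

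ETV5 (ENSGALG00000005768) measured 101, 109, 120 and 104 CPM across Lmx1aE1-EGFP libraries 1 to 4 and 115, 118, 73.1 and 39.1 CPM across Sox3U3-EGFP libraries 1 to 4. The Lmx1aE1-EGFP libraries were even, while Sox3U3-EGFP libraries 1 and 2, the deeper ones, were level with them and libraries 3 and 4 lay below. The log2FC was 0.32 (SE 0.31, edgeR adjusted p = 0.511). In the deeper libraries alone it was -0.03, and in the shallower ones 0.91 (adjusted p = 0.0469), so that the value depended on the libraries compared.

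ETV4 (ENSGALG00000036678) measured 52.4, 52.4, 36.7 and 29.8 CPM across Sox3U3-EGFP libraries 1 to 4 and 36.3, 32.4, 41.5 and 40.6 CPM across Lmx1aE1-EGFP libraries 1 to 4. As for ETV5, the deeper Sox3U3-EGFP libraries were above the shallower ones, and the groups overlapped. For this gene the log2FC was -0.19 (SE 0.17, edgeR adjusted p = 0.475). ETV1 had 78.2 ± 12.5 CPM in Sox3U3-EGFP+ and 64.9 ± 4.74 CPM in Lmx1aE1-EGFP+ cells (mean ± SD, n = 4 per group). Its log2FC of -0.27 had an adjusted p of 0.138 by edgeR, and without Sox3U3-EGFP library 4 it was -0.36 (adjusted p = 0.0429).

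SPRY1 (ENSGALG00000042067), a Sprouty protein that blocks receptor signalling to ERK, measured 76.3, 96.6, 56.5 and 32.3 CPM across Sox3U3-EGFP libraries 1 to 4 and 40.3, 49.6, 52.6 and 55.4 CPM across Lmx1aE1-EGFP libraries 1 to 4. Sox3U3-EGFP libraries 1, 2 and 3 lay above all Lmx1aE1-EGFP libraries and library 4 lay below them. This gave a log2FC of -0.41 (SE 0.29, edgeR adjusted p = 0.352) and -0.62 without Sox3U3-EGFP library 4 (adjusted p = 0.0123). Of the ligands, Sox3U3-EGFP library 4 had the highest FGF8 and FGF1 of its group and the lowest FGF19 and FGF3. FGF18, FGF10 and FGF7 were neither highest nor lowest there. The library was also the lowest of its group for ETV1, ETV4, ETV5, SPRY1, SPRY3, SPRED1, DUSP5 and DUSP7. So it was for FRS2, FGF13, DUSP10, DUSP12, DUSP19 and DUSP27. The inhibitors SPRY2, SPRY4, IL17RD and SPRED2 and the phosphatases DUSP1 and DUSP4 were not lowest in that library. Over the 48 members library 4 was the lowest of its group for 16 and the highest for 11, and over all tested genes for 29.9% and 30.8%.

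SPRY2 (ENSGALG00000016906) measured 125, 158, 131 and 156 CPM across Sox3U3-EGFP libraries 1 to 4 and 135, 131, 112 and 99.1 CPM across Lmx1aE1-EGFP libraries 1 to 4. The groups overlapped, and the log2FC of -0.26 (SE 0.12) did not pass the test (edgeR adjusted p = 0.137). SPRY3 (ENSGALG00000007448) was rare and measured 2.03, 2.76, 1.89 and 1.52 CPM across Sox3U3-EGFP libraries 1 to 4 and 1.05, 0.45, 0.83 and 1.17 CPM across Lmx1aE1-EGFP libraries 1 to 4. The groups were apart, but the smallest library held 3 counts. The fit put its log2FC at -1.18 (SE 0.41, edgeR adjusted p = 0.0448). The call was lost under 10 of the 16 alternatives that could test it, among them those without any 1 library other than library 4 of either group (adjusted p from 0.0636 to 0.126). SPRY4, SPRED1 and SPRED2 had log2FC values of -0.16, 0.10 and 0.43, none past the test. SPRED2, which with its relative SPRED1 holds RAS in check through neurofibromin, was nonetheless higher in every Lmx1aE1-EGFP library (8.49 to 11.8 CPM) than in any Sox3U3-EGFP library (6.62 to 8.16 CPM).

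**Figure D4:**
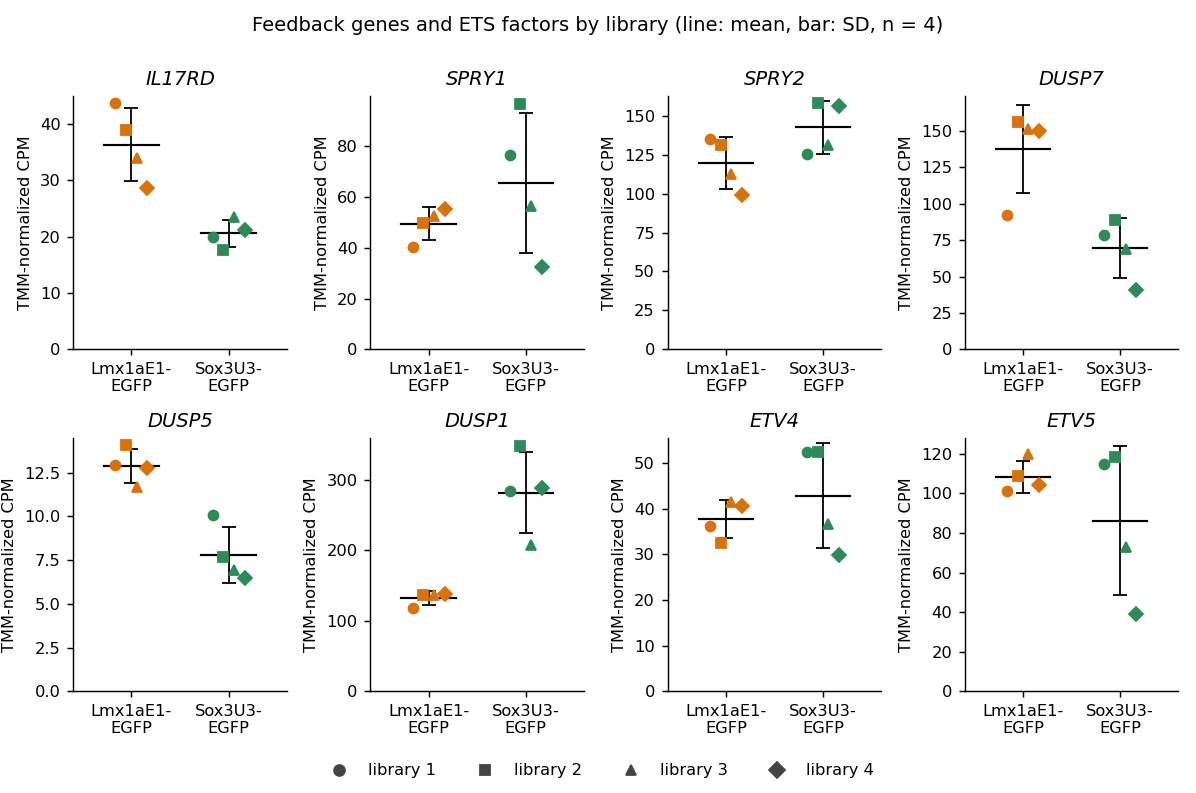
TMM-normalized CPM (y axis, linear) of 8 inhibitors, phosphatases and ETS factors in each of the 8 libraries, with means (lines) and SD (bars, n = 4). IL17RD, DUSP7 and DUSP5 are higher in Lmx1aE1-EGFP+ cells and DUSP1 in Sox3U3-EGFP+ cells without overlap, while SPRY1 and ETV5 spread from 32.3 to 96.6 and from 39.1 to 118 CPM within the Sox3U3-EGFP libraries.

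The DUSP genes encode phosphatases of which only some are induced by FGF and only some act on ERK. Of 7 MAP kinase phosphatases 2 were higher in each group, and of 9 tested atypical DUSPs 1 was higher in Sox3U3-EGFP+ cells and none in Lmx1aE1-EGFP+ cells. Over all 16 tested DUSP genes 31.2% were called, against 23.3% of all tested genes. DUSP6, the phosphatase most often used as a readout of FGF signalling, was not analysed here.

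The phosphatases higher in Lmx1aE1-EGFP+ cells both act on ERK. DUSP7 (ENSGALG00000041650), which works in the cytoplasm, measured 92.6, 157, 152 and 150 CPM across Lmx1aE1-EGFP libraries 1 to 4 and 78.4, 89.0, 69.3 and 40.9 CPM across Sox3U3-EGFP libraries 1 to 4. Lmx1aE1-EGFP library 1 lay well under the other libraries of its group but above all Sox3U3-EGFP libraries. The difference amounted to a log2FC of 0.98 (SE 0.24, edgeR adjusted p = 0.0152), and without Lmx1aE1-EGFP library 4 it was 0.94 (adjusted p = 0.0502). DUSP5 (ENSGALG00000032618), which works in the nucleus, measured 13.0, 14.1, 11.7 and 12.8 CPM across Lmx1aE1-EGFP libraries 1 to 4 and 10.1, 7.67, 6.93 and 6.48 CPM across Sox3U3-EGFP libraries 1 to 4, with no overlap. Its log2FC was 0.70 (SE 0.20, edgeR adjusted p = 0.0173), and without Lmx1aE1-EGFP library 2 it was 0.68 (adjusted p = 0.0514). Within the deeper libraries DUSP5 reached 0.48 (adjusted p = 0.257), and within the shallower ones DUSP7 reached 1.18 (adjusted p = 0.0523).

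The MAP kinase phosphatases higher in Sox3U3-EGFP+ cells act on stress-activated kinases too. DUSP1 (ENSGALG00000040360), an immediate-early gene that acts on p38, JNK and ERK and is also induced by stress, measured 284, 348, 207 and 288 CPM across Sox3U3-EGFP libraries 1 to 4 and 118, 137, 137 and 138 CPM across Lmx1aE1-EGFP libraries 1 to 4. The groups were far apart. The fitted log2FC was -1.09 (SE 0.13, edgeR adjusted p = 1.81e-05), and the call held under all 17 alternatives. DUSP16, which acts mainly on JNK, had a log2FC of -0.82 (SE 0.20, edgeR adjusted p = 0.00565) with no overlap, and within the deeper and the shallower libraries its adjusted p was 0.0632 and 0.0926. The atypical phosphatase DUSP14 had a log2FC of -0.97 (SE 0.14, edgeR adjusted p = 8.79e-05) with no overlap, from 151 ± 23.6 CPM in Sox3U3-EGFP+ and 76.8 ± 12.7 CPM in Lmx1aE1-EGFP+ cells (mean ± SD, n = 4 per group). DUSP4, DUSP8 and DUSP10 had log2FC values of 0.35, -0.17 and 0.48 and did not pass the test. The other 8 tested atypical DUSPs (DUSP12, DUSP15, DUSP19, DUSP21, DUSP23, DUSP26, DUSP27, DUSP28) ran from -0.51 to 0.54 with overlapping libraries, none past the test.

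Genes outside the set on which FGF signals depend were then read from lists. Heparan sulfate and FGF co-receptor genes had 8 of 27 tested members higher in Lmx1aE1-EGFP+ cells, 6 higher in Sox3U3-EGFP+ cells and 13 that did not pass the test. Among all tested genes 12.1% and 11.3% were. The list's median log2FC was -0.12. In Lmx1aE1-EGFP+ cells the higher genes included ANOS1 (log2FC 1.94, SE 0.20), whose product anosmin binds FGFR1 in human cells, the heparan sulfate synthesis enzymes NDST3 (1.83, SE 0.24), EXT1 (1.07, SE 0.16) and EXTL3 (0.69, SE 0.13), and the heparan sulfate core proteins SDC3 (1.58, SE 0.12), GPC4 (1.21, SE 0.15), SDC2 (0.91) and GPC1 (0.68). In Sox3U3-EGFP+ cells both endosulfatases, SULF1 (-1.10, SE 0.17) and SULF2 (-0.66, SE 0.15), which remove sulfate from heparan sulfate outside the cell, were higher. So were the heparan sulfate synthesis enzyme HS3ST1 (-1.02), SDC4 (-0.68), FLRT2 (-1.03), a receptor-binding membrane protein, and CDH2 (-0.86), which encodes N-cadherin. The synthesis enzymes EXT2 (-0.24), NDST1 (-0.07), NDST4 (-0.56), GLCE (-0.53), HS6ST1 (-0.15), HS2ST1 (0.23) and HS6ST2 (0.53) did not pass the test. KLB, the co-receptor of FGF19 in mammals, averaged 2.82 CPM in the Lmx1aE1-EGFP libraries, against 1.91 CPM, and did not pass the test.

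Of 13 tested genes of the cascade from receptor to ERK that are reported here, which do not cover the whole cascade, 5 were higher in Lmx1aE1-EGFP+ cells, against 12.1% of all tested genes, and 8 did not pass the test, with a median log2FC of 0.33. The 5 were the adaptor GRB2 (1.21, SE 0.22), the exchange factors SOS1 (0.67) and SOS2 (0.74), the kinase MAP2K2 (0.69) and the RAS inhibitor NF1 (0.57). No direction of the cascade as a whole is read from these genes. Among 6 tested immediate response genes, MYC was higher in Lmx1aE1-EGFP+ cells (log2FC 1.42, SE 0.26, edgeR adjusted p = 0.000855). This count of 1 in 6 lay near the 12.1% of all tested genes. EGR1 (0.85, adjusted p = 0.0792), EGR3 (0.65 CPM against 1.23 CPM in Sox3U3-EGFP+ cells), FOS (0.64), CCND1 (0.11) and SPSB1 (0.38) did not pass the test.

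**Figure D5:**
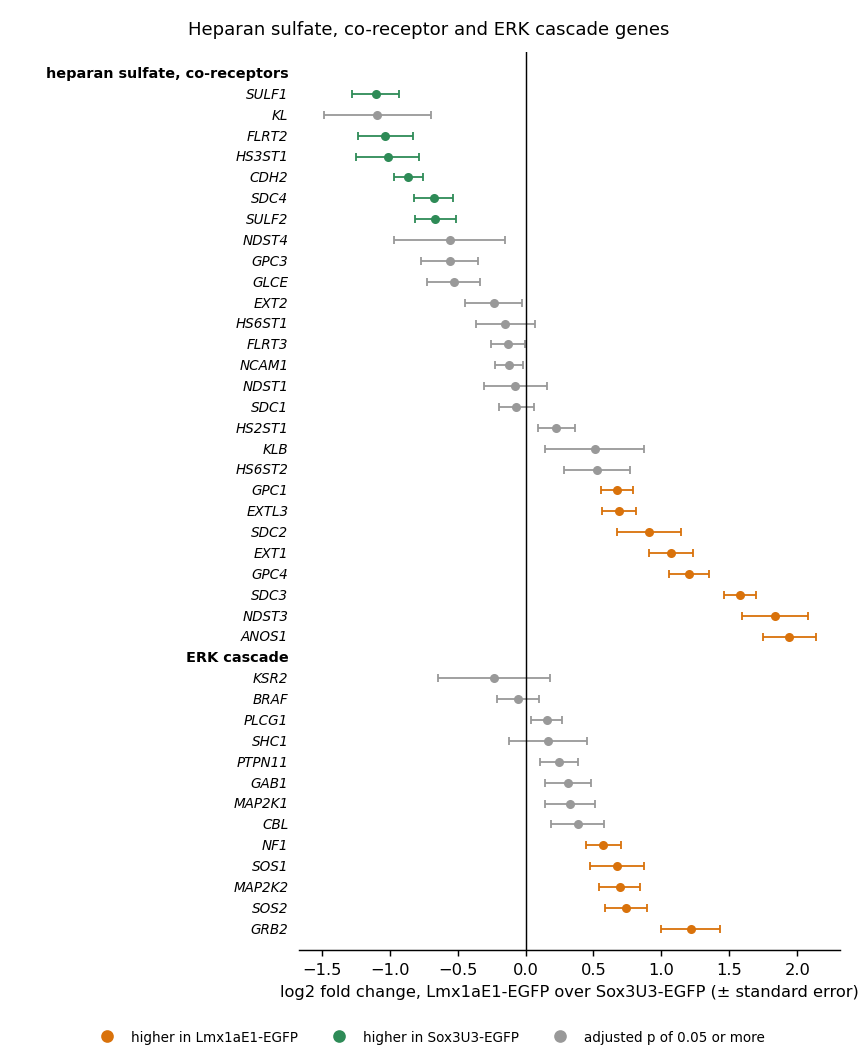
Log2 fold change of 27 heparan sulfate and co-receptor genes and 13 ERK cascade genes (x axis, Lmx1aE1-EGFP over Sox3U3-EGFP; points with standard errors). Coloured points are past an adjusted p of 0.05, 8 to the right and 6 to the left in the first list, and 5 to the right in the second.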

How the data were processed

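Each library held RNA of 2000 sorted cells, prepared with a Nextera low-input kit and read as 75-bp paired ends. What the authors deposited are raw read counts per Ensembl gene, made by NF-core's RNAseq workflow at its default settings, whose aligner is STAR, on the GalGal6 assembly. The submitters' processing notes also name Trim Galore and featureCounts. The strand setting was not given in the sources used here, so reads of overlapping or antisense genes cannot be told apart, and genes with near-identical copies are uncertain too.

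Low genes were removed by filterByExpr, TMM factors were computed, and a robust quasi-likelihood model with 1 term for the cell population was fitted in edgeR (version 4.0.16, R 4.3.3), with Benjamini-Hochberg adjustment. The standard error is the absolute log2 fold change divided by the square root of F. Exact permutation tests (two-sided, on log2 CPM with a prior count of 2) can reach no p below 0.0286 with 4 libraries a group. Totals of 6559872 to 45183366 counts per library set the precision, and the spread measured is that between libraries.

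Other settings were RLE factors, scaling by library size alone, no filter, a minimum of 10 counts in each library, DESeq2 (1.42.0), limma-voom (limma 3.58.1) with quality weights, a block for the replicate number, omission of each library, and fits restricted to the 4 libraries over or the 4 under 15000000 counts. Values of all 8 libraries are given for members with an adjusted p under 0.05 and a log2 fold change beyond 1, and, whatever their values, for FGF3, FGF8, FGF10, FGF16, FGF19, the 5 receptors, SPRY1, SPRY2, ETV4, ETV5 and IL17RD. Those of DUSP5 and DUSP7 were added after their values were seen. Members and lists were chosen with earlier results of these data known. RefSeq's GRCg7b gene table, in which 53 of the 54 members were found, served for gene neighbourhood only. Some genes of the marker and cascade lists are not reported here and were left out of the lists' counts, medians and summed levels. No sequence is shown.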

Additional observations from a re-analysis of the deposited data

Results flagged for a closer look

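In 96 groups of 4 libraries (48 genes in each cell population), 10 held a library whose gap to the nearest other library was a larger share of the group's range than Dixon's critical value allows, where chance gives about 4.8. Values are the ratio of gap to range on log2 CPM. In the Lmx1aE1-EGFP libraries, library 1 was the lowest for DUSP1 (0.944, 118 CPM against at least 137 CPM), DUSP7 (0.919, 92.6 CPM against at least 150.0 CPM) and DUSP28 (0.891, no counts). Library 4 was the lowest for FGFR1 (0.858, 120 CPM against at least 146 CPM) and FGF20 (0.930, 0.36 CPM against at least 1.21 CPM), and library 3 was the lowest for DUSP16 (0.853). In the Sox3U3-EGFP libraries, library 4 was the lowest for FGF3 (0.864, no counts against at least 1.95 CPM), library 2 for FGF20 (0.873) and library 3 for SPRED2 (0.841), and library 3 was the highest for FGF18 (0.856, 53.7 CPM against at most 46.3 CPM).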

How the results depend on the processing

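No called member changed direction under any of the 17 alternatives, and 6 of the 17 (DUSP1, DUSP14, FGF18, FGF8, FGFR3, IL17RD) kept their call under all of them. Of 800 pairs of member and alternative, 34 lost and 9 gained a call, and 39, all of uncalled members, changed sign. Replicate numbers did not pair the libraries (same-number correlations of -0.11, -0.23, 0.05 and -0.16), and with the number as a block 5 and 9 members, and 1550 and 1464 genes in all, were higher in Lmx1aE1-EGFP+ and Sox3U3-EGFP+ cells. The block ended the calls of FGF12 (adjusted p = 0.0528), FGFR4 (0.0948) and SPRY3 (0.120) in edgeR. Leaving out 1 library gave 4 to 6 and 9 to 13 members, and 1448 to 2035 and 1362 to 2056 genes. Within the deeper libraries 6 members were higher in Sox3U3-EGFP+ cells, and within the shallower libraries 7 were. Over all genes the counts were 1308 and 1068 within the deeper and 1155 and 1064 within the shallower libraries. These fits use fewer libraries. Requiring a log2 fold change over 1.5 as well left 0 and 4 members and 120 and 416 genes, and over 1 it left 0 and 7 members and 476 and 899 genes.

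The sign changed within the deeper libraries for DUSP28 (0.39), ETV5 (-0.034), FRS3 (0.28) and SPRED1 (-0.058). Within the shallower libraries it changed for DUSP15 (0.11), DUSP21 (0.15), DUSP23 (-0.056), DUSP26 (-0.18), DUSP27 (0.23), ETV4 (0.052), SPRY1 (0.019), SPRY4 (0.17) and FGF13 (0.055). With limma-voom it changed for DUSP19 (-0.0036), DUSP26 (-0.12), FRS2 (-0.11), SPRY4 (0.014) and FGF9 (0.13), and FRS2 also changed with library size only (-0.019) and with at least 10 counts in every library (-0.00021). With 1 library left out the log2 fold changes ran across 0 for DUSP15 (-0.158 to 0.0154), DUSP19 (-0.0393 to 0.116), DUSP23 (-0.0366 to 0.166), DUSP26 (-0.263 to 0.301), DUSP28 (-0.280 to 0.133), DUSP8 (-0.317 to 0.114), FGF2 (-0.441 to 0.00698), FGF6 (-0.720 to 0.249), FGF9 (-0.254 to 0.102), FRS2 (-0.132 to 0.221), FRS3 (-0.548 to 0.0431) and SPRY4 (-0.617 to 0.143). The cause was not tested.

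Counts of 0 to 40 in single libraries limit what can be said of FGF4, FGF5, FGF16, FGF22, FGFBP2 and DUSP13, and FGF7 and SPRY3 rest on as few as 3 counts.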
